A study of Mus musculus with 24 samples.

Results

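The mammary glands of 3 NZB mice on day 8 of lactation were compared with those of 3 NZB mice that were not lactating, 6 of the 24 glands in the series. These 6 samples were taken by their labels alone (genotype BL/6 NZB, lactation day 8 or non-lactating), and no measured value entered the choice. The whole series covers 8 groups of 3 mice: BL/6 NZB and BL/6 C57 mice, each sampled without lactation and on days 8, 14 and 21 of lactation. Both genotypes share the BL/6 background; in this study the second part of the name stands for the strain that gave the mitochondrial DNA, so neither group carries an added transgene by its label. Inguinal glands were frozen whole and polyA RNA was sequenced, which means that epithelium, fat, connective tissue, vessels and any lymphoid tissue in the piece contributed to each library. The labels state neither age, parity of the non-lactating mice nor litter size, and they do not say how the 3 mice of a group were housed, so p-values measure the spread between these 3 and 3 samples.

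Secretory activation is the step at which the alveolar epithelium, primed during pregnancy, begins to make milk in bulk once progesterone falls and prolactin acts through the transcription factor STAT5. Caseins and whey proteins then pass through the endoplasmic reticulum and Golgi, lactose is made in the Golgi from glucose, fat leaves as globules wrapped in apical membrane, and calcium, phosphate and zinc are pumped into the secretory route. Over the same period the alveoli fill the space held by adipocytes in the resting gland.

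The depth of each mouse, recovered from the deposited values as the mean of its 2 columns, was 9923538 to 13446804 reads in the 3 non-lactating glands and 21400912 to 24252986 reads in the 3 day 8 glands. The non-lactating libraries varied more than the day 8 libraries: the median SD over genes was 0.39 on the log2 scale against 0.23. Mice 2 and 3 of the non-lactating group stood apart in lymphocyte genes. The summed level of the 13 listed B cell markers was 51.8, 1116 and 2436 CPM in non-lactating mice 1, 2 and 3, and 26.4 to 39.8 CPM on day 8 (CPM, counts per 1000000 counts, here on the non-milk scale defined below). For the 14 listed T cell markers the sums were 35.2, 363.8 and 2437 CPM against 34.7 to 70.5 CPM. Of each of these lists 9 genes were tested. Where leaving out both moved a list's count by over 1.5 times, that count is given too. In that fit 1 resting mouse is left and is assumed to vary like the day 8 mice.

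**Figure D1:**
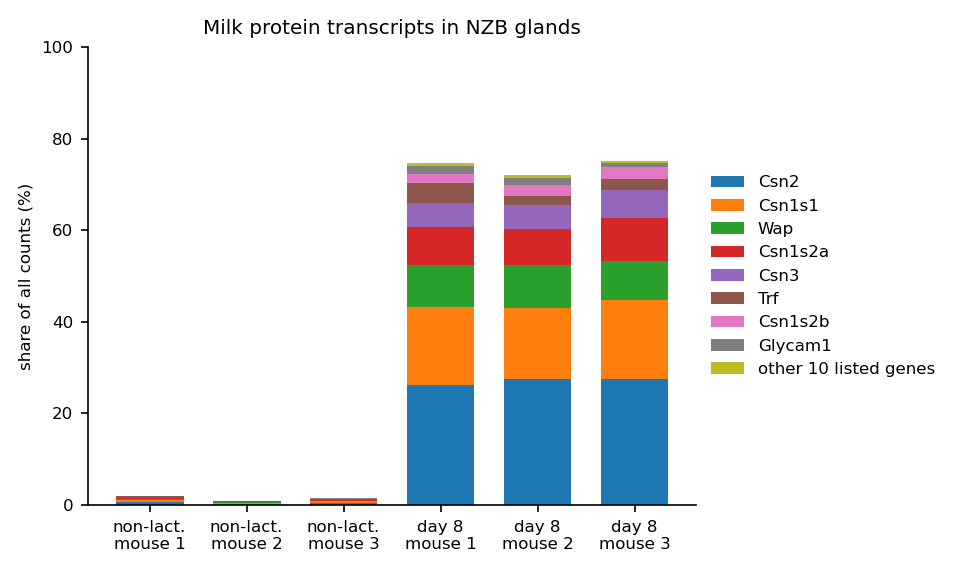
Share of all counts (percent, y axis) taken by the 18 listed milk protein genes in each of the 6 NZB mice (x axis), stacked by gene. The 3 day 8 bars reach 72.0 to 75.1%, and the 3 non-lactating bars stay at or below 1.95%.

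Milk protein transcripts took over the libraries. The 18 listed milk protein genes held 1.95, 0.964 and 1.44% of counts in the non-lactating mice (mean 1.45% ± 0.494, SD, n = 3) and 74.6, 72.0 and 75.1% in the day 8 mice (mean 73.9% ± 1.66, SD, n = 3). The groups did not overlap, the difference was 72.5 percentage points, and a 2-sided exact permutation test gave p = 0.1, which 3 against 3 mice cannot go below. On day 8 Csn2, which encodes beta-casein, alone took 27.1% of counts, Csn1s1, alpha-S1-casein, took 16.5%, and Wap, the whey acidic protein of rodents, 9.01%. Shares of counts follow transcript length as well as transcript number, so they do not rank the genes by molecules.

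The 5 casein genes lie together on chromosome 5 of GRCm38 in the GENCODE annotation: Csn1s1 at chr5:87666208-87682578, Csn2 at chr5:87692624-87699630, Csn1s2a at chr5:87774567-87788797, Csn1s2b at chr5:87808082-87824426 and Csn3 at chr5:87925579-87932665. Wap is at chr11:6635482-6638637, and the genes of alpha-lactalbumin, Lalba (chr15:98480400-98482721), and of the mucin-like Glycam1 (chr15:103562759-103565081) are on chromosome 15; all 8 are protein coding. Because STAT5 binds the palindrome TTCNNNGAA, the 250 bases before each RefSeq start site were searched for it on both strands, which read the same. Of 32851 such windows over all genes, 2306 (7.02%) held it. Among the listed milk protein genes 14 of 18 had a window, and 4 of their 15 windows did: those of Csn1s1, Csn2, Glycam1 and Pip, the gene of prolactin-inducible protein. A match is a run of letters in this window, not a measured site. The Csn1s1, Glycam1 and Wap windows are shown whole as 2 windows with the palindrome and 1 without it, and 27 bases around the match for Csn2 and for the first of 2 matches for Pip, all from RefSeq (GRCm38.p6), 5′ to 3′ on the gene's strand, with the palindrome in capitals.
Csn1s1, chr5:87665958-87666207, plus strand: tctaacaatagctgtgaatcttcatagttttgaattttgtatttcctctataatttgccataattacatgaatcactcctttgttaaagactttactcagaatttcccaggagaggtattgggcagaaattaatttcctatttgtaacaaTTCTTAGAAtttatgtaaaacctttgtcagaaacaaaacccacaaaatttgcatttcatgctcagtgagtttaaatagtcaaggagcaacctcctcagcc
Csn2, chr5:87699501-87699527, minus strand: cacgtagacTTCTTGGAAttgaaggga
Glycam1, chr15:103565082-103565331, minus strand: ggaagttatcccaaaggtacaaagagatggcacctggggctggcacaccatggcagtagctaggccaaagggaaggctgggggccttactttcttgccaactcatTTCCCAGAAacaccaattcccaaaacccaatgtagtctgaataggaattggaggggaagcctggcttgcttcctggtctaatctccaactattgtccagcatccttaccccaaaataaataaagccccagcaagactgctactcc
Pip, chr6:41847400-41847426, plus strand: catttttttTTCATAGAAataacaaac
Wap, chr11:6638650-6638899, minus strand: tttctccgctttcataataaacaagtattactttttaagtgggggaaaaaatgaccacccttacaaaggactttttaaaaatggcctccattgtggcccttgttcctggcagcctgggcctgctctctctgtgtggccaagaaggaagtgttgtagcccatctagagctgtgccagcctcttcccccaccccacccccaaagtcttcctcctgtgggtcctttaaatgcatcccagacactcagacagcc
Counted from the RefSeq start site, the match began 100 bases upstream in Csn1s1, 93 in Csn2, 145 in Glycam1, and 140 and 42 in Pip. The Csn2 match lies inside the GENCODE span of that gene given above, since the GENCODE start is further upstream than the RefSeq one. None of the 14 windows found for 10 of the 15 non-milk genes with the largest increases held it, nor did the 21 windows of 15 white adipocyte markers. The 12 windows of 10 of the 15 genes with the largest decreases and the 5 of the milk fat globule list held none either. With 7.02% of all windows holding it, sets this small can hold none, so these counts set no contrast with the milk genes.

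Csn1s1 transcripts, whose window carries the palindrome, were at 3806, 1856 and 2752 deposited CPM in the non-lactating mice and at 170306, 155050 and 170808 on day 8, a log2 change of 5.94 ± 0.62 (SE, adjusted p = 7.1e-05, limma with Benjamini-Hochberg adjustment over all genes). Wap, whose window does not, was at 2539, 1030 and 1834 deposited CPM against 91099, 93423 and 85646 (log2 change 5.74 ± 0.55, adjusted p = 5.4e-05). In both genes every day 8 mouse was far above every non-lactating mouse. Lalba, the lactose synthase cofactor, had 34, 13.5 and 21.7 deposited CPM and then 750.9, 826.2 and 852.8 (log2 change 5.16 ± 0.31, adjusted p = 2.1e-05). Glycam1 was uneven within both groups, at 138.2, 216.1 and 684.1 deposited CPM without lactation and 17728, 15305 and 8248 on day 8 (log2 change 5.57 ± 0.61, adjusted p = 8.7e-05). Its day 8 mouse 3 was lowest and its non-lactating mouse 3 highest.

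Of the 18 milk protein genes 17 rose and 1 fell on the deposited scale, where 2.85% of all 14783 tested genes rose and 89.9% fell; their median log2 change was 5.32 against -1.88 for all genes. Minor milk proteins moved with the caseins: Cel, a lipase that acts on milk fat in the infant gut, went from 8.46 to 636.4 deposited CPM on average (log2 change 6.09 ± 0.36) and Lao1, an amino acid oxidase that yields antibacterial peroxide, from 72.9 to 3126 (5.47 ± 0.31), and Wfdc18, a small whey protein, rose by 4.85 ± 0.30. Iron binders varied between day 8 mice. Trf, transferrin, was at 42399, 19603 and 25082 deposited CPM on day 8 and Ltf, lactoferrin, at 1048, 398.4 and 239.6, with mouse 1 highest in both. Wfdc21 was the exception, at 5.47, 6.26 and 1.01 deposited CPM without lactation and 0.0935, 0 and 0 on day 8 (log2 change -2.14 ± 0.46, adjusted p = 0.0024).

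The resting level of the milk genes was not independent between genes. Csn1s1, Csn2, Csn1s2a, Csn1s2b, Csn3 and Wap stood in non-lactating mouse 2 at 1.11 to 1.14% of their own day 8 means, in mouse 1 at 1.96 to 2.82% and in mouse 3 at 1.5 to 2.04%. Over the 17 genes that rose the median share of the day 8 level was 2.53, 1.14 and 2.67% in mice 1, 2 and 3, and 13 of the 17 were lowest in mouse 2. In the 3 non-lactating C57 mice the same medians were 0.484, 0.463 and 0.553%. The log2 changes of milk genes in NZB rest on these resting levels. Whether part of these reads came over from other libraries was not tested; any such reads would make the printed changes too small.

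Because milk protein transcripts crowd other genes on the deposited scale, every other gene was put on a non-milk scale: the 18 genes were removed and the rest rescaled to the same total. On that scale 14765 genes were tested; 1828 (12.4%) rose, 3782 (25.6%) fell and the median log2 change was -0.33. On the deposited scale 421 rose and 13297 fell. Among genes called on both, 675 of 4861 rose on the non-milk scale and fell on the deposited one, so a rise reported below is a rise relative to the other non-milk transcripts. Each list's count is to be read beside the 12.4% and 25.6% of all genes. With median-ratio size factors, which move the median of all genes by 0.28, 2728 rose and 2699 fell, so that 50.3% of the calls were rises against 32.6% on the non-milk scale. In whole-gland RNA, fewer cells of a type and less RNA per cell cannot be told apart.

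**Figure D2:**
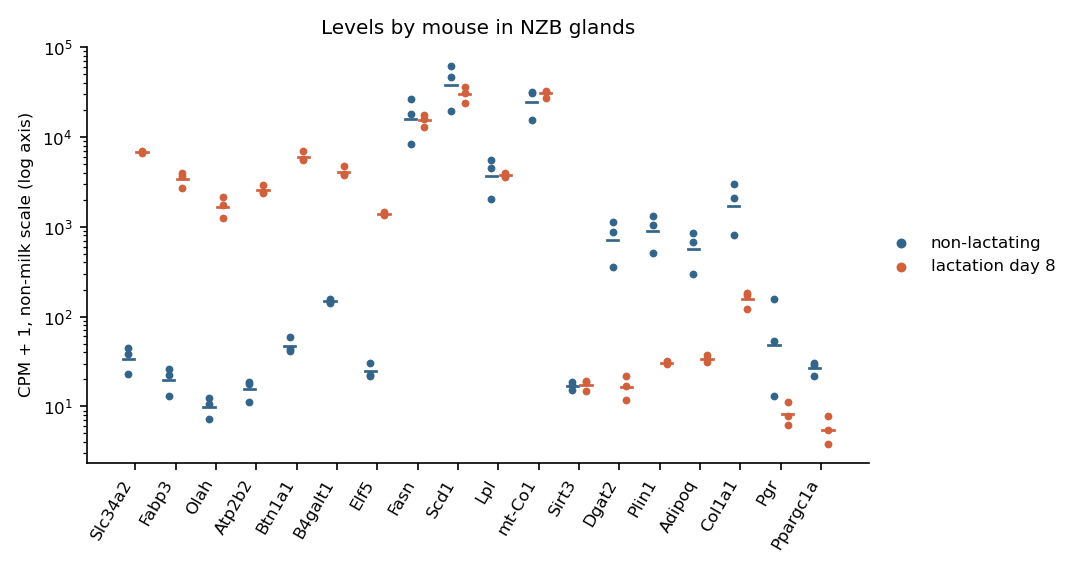
Level of 18 genes (CPM + 1 on the non-milk scale, log axis) in each NZB mouse; points are mice and bars geometric means of 3, non-lactating in blue and day 8 in orange. Slc34a2, Fabp3, Olah, Atp2b2 and Btn1a1 rise in all mice, Fasn, Scd1 and mt-Co1 overlap between groups, and Dgat2, Plin1 and Adipoq fall in all mice.

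The largest rise outside the milk proteins was in Slc34a2, the sodium phosphate cotransporter of the alveolar apical membrane (chr5:53038081-53071664), at 43.8, 22 and 37 non-milk CPM without lactation and 6739, 6975 and 6685 on day 8 (log2 change 7.64 ± 0.27, adjusted p = 4.5e-06). Fabp3, a fatty acid binding protein of the milk fat globule, followed with 25, 12.1 and 21.4 against 3675, 2725 and 4005 non-milk CPM (log2 change 7.44 ± 0.29). Olah, the thioesterase that ends fatty acid chains at medium length and so gives milk its short fats, had 9.71, 6.15 and 11.5 against 2118, 1255 and 1728 non-milk CPM (7.40 ± 0.28). No day 8 mouse came near a resting mouse in these genes. Next was Atp2b2, the plasma membrane pump that moves calcium into milk, at 17.8, 10.1 and 16.6 and then 2354, 2947 and 2433 non-milk CPM (7.38 ± 0.24). Among the 15 largest rises were also Pigr (log2 change 7.10 ± 0.32), the receptor that carries antibodies across the epithelium, Slc28a3 (7.02), a nucleoside transporter, Ceacam10 (6.98), Chrdl2 (6.85), Slc9a4 (6.71), a sodium proton exchanger, Folr1 (6.66 ± 0.26), which binds folate, Ccl28 (6.48 ± 0.43), a chemokine that attracts antibody-secreting cells, and Slc39a8 (6.34 ± 0.21), a zinc and manganese importer. The resting levels of these 15 genes had medians of 3.05, 1.7 and 2.68% of the day 8 level in non-lactating mice 1, 2 and 3, and 13 of the 15 were lowest in mouse 2, as were most of the milk genes.

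The milk fat globule list rose nearly whole: 9 of 10 genes rose and none fell, with a median log2 change of 6.20. Btn1a1, butyrophilin of the globule membrane, was at 58.3, 40.2 and 42.3 and then 6954, 5540 and 5642 non-milk CPM (log2 change 6.99 ± 0.23, adjusted p = 3.7e-06). Its partner Xdh, xanthine dehydrogenase, started much higher, at 363.1, 299.2 and 191.1, and reached 6164, 6443 and 5422 non-milk CPM (4.44 ± 0.30). Plin2, the droplet coat that meets the butyrophilin complex, went from 247.5 to 1929 (3.05 ± 0.36), and the membrane mucins Muc1 and Muc15 rose by log2 changes of 6.82 ± 0.18 and 6.94 ± 0.18. Mfge8, lactadherin of the same membrane, rose by 4.08 ± 0.22. Cidea, a droplet-growth protein known from brown fat and present in milk-secreting epithelium, was at 15.4, 19.7 and 9.35 and then 859.9, 750.2 and 829.5 non-milk CPM (5.74 ± 0.26). The one member not called was Cd36, the fatty acid receptor shared with adipocytes and vessels (log2 change 0.94 ± 0.40, adjusted p = 0.099).

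Fat synthesis genes, which adipocytes and alveoli both use, moved in both directions. In the de novo synthesis list 4 of 15 genes rose and 2 fell, with a median log2 change of 0.55. In this list 7 rose without resting mouse 1, and 1 fell without any mouse but resting mouse 3. Fasn, fatty acid synthase, was at 26245, 17957 and 8325 non-milk CPM in resting glands and at 17696, 12747 and 15827 on day 8 (log2 change -0.05 ± 0.63, adjusted p = 0.96). Scd1, the main desaturase, was at 61648, 45955 and 19458 and then 23940, 36168 and 30478 non-milk CPM (-0.35 ± 0.80, adjusted p = 0.76). The groups overlapped in both, with the resting mice spread over a wider range than the lactating ones. Acaca, which makes malonyl-CoA, had non-overlapping groups but a log2 change of 1.26 ± 0.46 that did not pass (adjusted p = 0.06), and Acly, Thrsp and Srebf1 did not pass either (log2 changes 0.85, 1.06 and 0.49, adjusted p = 0.14, 0.097 and 0.27). Mlxipl, the carbohydrate-responsive regulator ChREBP, fell by 3.68 on the log2 scale, from 391.7, 309.3 and 163.1 to 20, 24.8 and 16.7 non-milk CPM.

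Among desaturases and elongases 8 of 12 tested genes rose and 2 fell (median log2 change 1.41). Elovl2 and Elovl4 were too low to be tested. Of the enzymes of polyunsaturated chains, Fads2, the delta-6 desaturase, went from 19.3 to 511.3 non-milk CPM (4.68 ± 0.21), Fads1 from 104.6 to 1875 (4.23 ± 0.33) and Elovl5 from 101.3 to 1351 (3.72 ± 0.21). Scd2 rose by 1.01 ± 0.31, whereas Elovl6, the elongase of saturated chains, fell by 1.80 ± 0.42 and Fads3 by 1.86 ± 0.37 on the log2 scale. Scd2 did not pass without any 1 of the day 8 mice or resting mouse 2 (adjusted p 0.051 to 0.14), and Elovl6 did not without day 8 mouse 1 or 2 (0.058 and 0.054). Triglyceride assembly exchanged isoforms. Dgat2, the final acyltransferase of adipocyte fat, was at 1119, 864.4 and 356.5 and then 20.9, 10.7 and 16 non-milk CPM (log2 change -5.43 ± 0.43, adjusted p = 0.0001), the largest fall of any gene that the naming rule admits. Agpat2 fell by 4.44 ± 0.36, Agpat3 by 2.99 ± 0.22, Gpam by 1.61 ± 0.34 and Dgat1 by 1.20 ± 0.26 (the last 2 not with median-ratio size factors, adjusted p = 0.052 and 0.074), while Agpat1 rose by 1.38 ± 0.18, Gpat4 by 1.90 ± 0.23 and Lpin1, the phosphatidate phosphatase, by 2.82 ± 0.33. In that list of 25 tested genes 8 rose and 10 fell, and Lpl, which frees fatty acids from plasma lipids, stayed within the resting range (5560, 4445 and 2058 against 3678, 3614 and 3913 non-milk CPM, log2 change 0.01).

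Cholesterol synthesis rose in part: 10 of 23 genes rose, against 12.4% of all genes, none fell, and the median log2 change was 0.58 (1 fell without resting mice 2 and 3). Hsd17b7 was the furthest, at 15, 14.4 and 13.7 and then 220.9, 178.7 and 176.8 non-milk CPM (3.65 ± 0.18, adjusted p = 1.5e-05), followed by Sqle, squalene epoxidase (2.66 ± 0.19), Fdps (2.12 ± 0.26) and Mvd (1.95 ± 0.22), enzymes of the isoprenoid steps.

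Lactose genes rose at the Golgi and at glucose entry. B4galt1, the galactosyltransferase that makes lactose together with alpha-lactalbumin, was steady in resting glands at 142.2, 145.2 and 156.3 and stood at 4745, 3720 and 3837 non-milk CPM on day 8 (log2 change 4.78 ± 0.21, adjusted p = 8.8e-06). Slc2a1, the basal glucose transporter, was at 14.8, 19.9 and 33.3 and then 187.7, 196.4 and 208.1 non-milk CPM (3.14 ± 0.28). Slc2a4, the insulin-responsive transporter of adipocytes, moved the other way, from 207.7, 156.6 and 72.5 to 7.18, 7.43 and 8.93 non-milk CPM (-3.93 ± 0.37). Day 8 glands therefore had more Slc2a1 than Slc2a4 reads in every mouse and resting glands more Slc2a4 reads in every mouse. Slc5a1, a sodium glucose cotransporter, rose from 1.2 to 77.4 (5.15 ± 0.24) and Slc35a2, which carries UDP-galactose into the Golgi, by 1.66 ± 0.26; in all 7 of the 16 genes of the list rose and 3 fell.

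Mineral transport rose through specific isoforms. In the calcium list 6 of 13 tested genes rose and 4 fell, or 2 fell without day 8 mouse 1: beside Atp2b2, the secretory-pathway pump Atp2c2 went from 5.48 to 334.9 non-milk CPM (5.73 ± 0.25), Orai1, the store-operated calcium channel, from 18.3 to 203.7 (3.47 ± 0.30) and Pthlh, the gland's calcium-mobilising hormone, from 1.53 to 51.1 (4.36 ± 0.32). The store sensors divided, since Stim2 rose by 2.46 ± 0.19 and Stim1 fell by 1.98 ± 0.25 on the log2 scale, and the pump isoform Atp2b4 fell by 2.06 ± 0.25. Zinc handling gave 9 rises and 1 fall in 20 tested genes: Slc30a2, the exporter that loads zinc into milk, was at 0.758, 0.571 and 1.69 and then 70.1, 52.5 and 64.9 non-milk CPM (5.01 ± 0.30), Slc30a4 rose by 2.95 ± 0.22 and Slc39a14, an importer, by 4.08 ± 0.19, while Slc39a13 fell by 1.68 ± 0.26.

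Amino acid transporters were exchanged rather than raised together, with 11 of 27 tested genes higher and 10 lower (median log2 change 0.19). Slc7a5, the large neutral amino acid exchanger, was at 9.56, 12.5 and 28.3 and then 847.1, 672.9 and 1149 non-milk CPM (5.75 ± 0.39), and Slc1a4 rose by 4.93 ± 0.24. Its relative Slc1a5, a glutamine transporter, fell from 1405, 1070 and 633.9 to 39.5, 37.2 and 36.9 non-milk CPM (-4.66 ± 0.29). Slc36a2 and Slc7a10 fell by 4.70 ± 0.39 and 3.68 ± 0.33; Slc38a2, a sodium-coupled transporter, rose by 2.69 ± 0.22. Among water, chloride and monocarboxylate transporters 6 of 16 rose, among them Aqp9 (3.37 ± 0.36) and Clcn3 (2.15 ± 0.25), and 5 fell, among them the aquaglyceroporin of fat Aqp7 (-3.51 ± 0.33) and the epithelial water channel Aqp5 (-4.33 ± 0.72), whose mean went from 33.1 to 0.196 non-milk CPM.

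**Figure D3:**
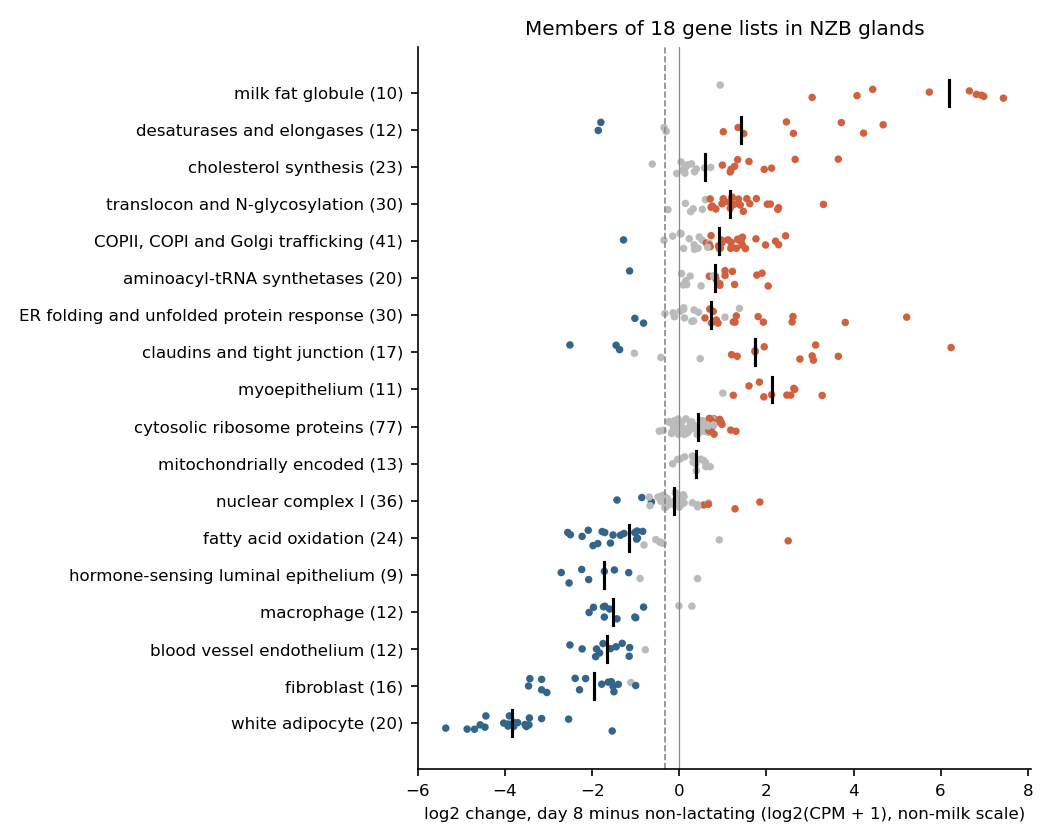
Log2 change, day 8 minus non-lactating, on the non-milk scale (x axis) for the tested members of 18 gene lists (rows, with the number tested). Each point is a gene, orange where it rose, blue where it fell and grey where it did not pass; black ticks are list medians, from 6.20 for milk fat globule to -3.85 for white adipocyte, and the dashed line is the median of all genes, -0.33.

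The export route for secreted proteins rose as a block of modest changes. Among 30 translocon and N-glycosylation genes 24 rose and none fell (median log2 change 1.16, against -0.33 for all genes and 12.4% of all genes rising). Ssr4, of the translocon-associated complex, was at 45.2, 40.7 and 46.4 and then 360.0, 423.8 and 577.6 non-milk CPM (3.31 ± 0.22), and Srpr, the signal recognition particle receptor, rose by 2.26 ± 0.18. In COPII, COPI and Golgi trafficking 26 of 41 genes rose and 1 fell (median 0.92): the cargo receptors Surf4 (2.44 ± 0.19), Lman1 (1.98 ± 0.26) and Mcfd2 (2.28 ± 0.30) and the coat subunit Sec23b (2.21 ± 0.22) rose, and Sec24b fell by 1.28 ± 0.17. On the deposited scale the same lists read 1 rise and 20 falls for the translocon and 1 rise and 32 falls for trafficking, from the same reads divided by a total that includes milk protein transcripts.

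Folding genes of the endoplasmic reticulum followed, with 15 of 30 higher and 2 lower (median 0.72). Only 8 or 9 were higher without day 8 mouse 2 or 3 or resting mouse 2, and 1 or none was lower without any 1 mouse or without resting mice 2 and 3. P4hb, a protein disulfide isomerase, was at 195.7, 194.9 and 122.1 and then 922.0, 1009 and 1149 non-milk CPM (2.61 ± 0.24). Xbp1, a transcription factor that widens the secretory apparatus, had 205.2, 191.5 and 126.5 against 1377, 1067 and 757.9 (2.59 ± 0.29), and Fkbp11 went from 1.43 to 89 (5.22 ± 0.28). Hspa5, the main chaperone of the compartment, and Creb3l1, a membrane-bound factor of secretory cells, rose by 1.24 ± 0.25 and 1.45 ± 0.34, the latter not without day 8 mouse 1 (adjusted p = 0.054). Each of these genes was higher in every day 8 mouse than in any resting mouse, where 52.8% of all genes did not overlap. Of 20 cytosolic aminoacyl-tRNA synthetases 12 rose (7 without day 8 mouse 3) and 1, Wars, fell by 1.14 ± 0.21; Rars (2.04 ± 0.26), Iars (1.90 ± 0.28) and Nars (1.78 ± 0.20) led. In the integrated stress response list 5 of 18 rose, or 8 with median-ratio size factors, and none fell: Atf4, its central factor, was at 75.4, 82.7 and 86.2 and then 234.7, 264.9 and 290.3 non-milk CPM (1.68 ± 0.17), and its targets Trib3 (3.53 ± 0.44), Asns, asparagine synthetase (2.84 ± 0.38), Chac1 (2.32 ± 0.42) and the stress protein Nupr1 (3.17 ± 0.30) rose with it. The other 13 tested members of that list did not pass, among them Ddit3 (log2 change -0.40), Atf3 (-0.21), Sesn2 (0.35) and Slc7a11 (0.33). The list median was 0.34. Phgdh and Psat1, enzymes of serine synthesis, did not pass (log2 changes 0.46 and -0.07, adjusted p = 0.16 and 0.90).

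Of the cytosolic ribosomal protein genes 13 of 77 rose, a share near the 12.4% of all genes, none fell, and the median was 0.43. This count was 2 to 7 without any 1 mouse but resting mouse 3, 37 without that mouse, 46 without resting mice 2 and 3, and 47 with median-ratio size factors. The summed level of all 80 listed genes was 5621, 7960 and 9538 non-milk CPM in resting mice 1, 2 and 3 against 10668, 9925 and 11478 on day 8. Rpl10 (1.3 ± 0.21) and Rpl41 (1.18 ± 0.20) had the smallest p-values. Mitochondrial ribosomal proteins gave a different count, with 1 rise and 6 falls in 77 and a median of -0.03. The falls were 1 to 3 without any 1 mouse but resting mouse 3 and 2 without resting mice 2 and 3, and 9 genes rose with median-ratio size factors.

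The prolactin and STAT5 list gave 6 rises and 4 falls in 16 genes (median 0.87), and 10 rises without resting mice 2 and 3. Elf5, the alveolar transcription factor downstream of the prolactin receptor, was at 21.3, 29.2 and 20.9 and then 1357, 1456 and 1367 non-milk CPM (log2 change 5.83 ± 0.19, adjusted p = 3.7e-06), and Stat5a had 132.0, 151.7 and 122.8 against 349.7, 375.3 and 435.2 (1.51 ± 0.19). Prlr, the prolactin receptor, varied widely without lactation, at 225.5, 667.1 and 90.8 non-milk CPM, and stood at 570.0, 631.0 and 597.8 on day 8 (1.32 ± 0.61, adjusted p = 0.12). Akt1, a kinase of the insulin pathway, rose by 2.12 ± 0.17 and Erbb4, a receptor that activates STAT5, by 2.91 ± 0.38. Cish and Socs2, feedback targets of STAT5, did not pass (0.87 ± 0.36 and 0.98 ± 0.34, adjusted p = 0.089 and 0.054), and other inhibitors fell: Socs3 by 3.09 ± 0.45 and Cav1, caveolin, by 2.90 ± 0.37, the latter also an abundant protein of adipocytes and vessels.

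Epithelial classes moved apart. The label of mammary gland was met by its epithelial markers in every library, since the summed myoepithelial markers were 319.5, 416.7 and 192.1 non-milk CPM without lactation and 1075, 1305 and 1374 on day 8, with 10 of 11 tested genes higher and none lower (median 2.12). Myh11, smooth muscle myosin, was at 47, 70.6 and 36.7 and then 267.5, 331.5 and 357.4 non-milk CPM (2.65 ± 0.26), and Oxtr, the oxytocin receptor through which suckling ejects milk, at 59.3, 70.4 and 21.9 and then 133.0, 140.6 and 143.3 (1.60 ± 0.40, adjusted p = 0.015, and 0.054 to 0.058 without any 1 of the day 8 mice). The contractile protein Acta2 and the basal keratins Krt5 and Krt14 rose by 2.56 ± 0.41, 2.63 ± 0.60 and 2.47 ± 0.51. Of 10 secretory alveolar markers 7 rose and 2, Kit and Aldh1a3, fell, by 3.28 ± 0.51 and 1.41 ± 0.37; both are known from luminal progenitors, and without resting mice 2 and 3 only 1 marker fell. Aldh1a3 did not pass without day 8 mouse 2 or 3 or resting mouse 2 (adjusted p 0.061 to 0.072). General luminal markers gave 4 rises in 10, or 7 without resting mouse 2 and also without resting mice 2 and 3, and 2 falls without resting mouse 3, with Ehf, an epithelial transcription factor, at 13, 24.9 and 14.8 and then 787.5, 492.0 and 523.9 non-milk CPM (5.04 ± 0.29). Epcam and Cldn3 rose by 3.61 ± 0.53 and 1.74 ± 0.49, and the luminal keratins Krt8 and Krt18 did not pass (adjusted p = 0.087 and 0.21), with resting mouse 2 inside or above the day 8 range. Without any 1 of the day 8 mice Cldn3 did not pass (adjusted p 0.069 to 0.079).

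Most tested hormone-sensing luminal markers went down, but the summed level of all 13 listed did not separate the groups. That sum was 469.3, 741.6 and 234.4 non-milk CPM without lactation and 292.1, 253.4 and 243.3 on day 8. Of 9 tested genes 7 fell and none rose, with a median of -1.72, in a comparison where 25.6% of all genes fell. Pgr, the progesterone receptor, was at 52.6, 155.4 and 11.9 and then 6.9, 5.18 and 10.3 non-milk CPM (-2.53 ± 0.79, adjusted p = 0.036), with resting mouse 3 only just above the day 8 mice; Tbx3 fell by 2.08 ± 0.44 and the pioneer factor Foxa1 by 2.71 ± 0.89, with overlapping groups. Esr1, the estrogen receptor, which stroma and fat also carry, was at 194.4, 183.3 and 77.4 and then 209.0, 185.3 and 172.4 non-milk CPM (0.42 ± 0.34, adjusted p = 0.37). With limma voom on the recovered reads 3 of the 9 fell, with median-ratio size factors 4, and 2 to 4 without any 1 of the day 8 mice or resting mouse 2. By limma voom Pgr did not pass (adjusted p = 0.11). Pgr also missed the threshold without any 1 of the day 8 mice or resting mouse 2 (adjusted p 0.076 to 0.12), and Foxa1 without day 8 mouse 2 or 3 or resting mouse 2 (0.12 to 0.15).

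Junction genes moved in both directions. Among claudins and tight junction genes 11 of 17 tested rose and 3 fell (median 1.74). Cldn8 (chr16:88560828-88563183) was at 3.94, 6.24 and 2.25 and then 357.2, 388.6 and 356.3 non-milk CPM (6.24 ± 0.29), and the epithelial junction proteins Marveld3 (3.65 ± 0.33), Cldn7 (3.13 ± 0.30), Ocln, occludin (3.08 ± 0.38), and Cgn, cingulin (3.05 ± 0.28), rose, whereas Cldn5, the claudin of endothelium, fell by 2.51 ± 0.49. The connexins of secretory epithelium Gjb1 and Gjb2 rose by 6.33 ± 0.28 and 5.46 ± 0.32, Gjb2 from 1.4, 1.47 and 1.74 to 70.6, 156.6 and 120.6 non-milk CPM, while Gjc1, Gja1 and Gja4 fell by 2.63 ± 0.38, 2.21 ± 0.39 and 1.39 ± 0.29.

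**Figure D4:**
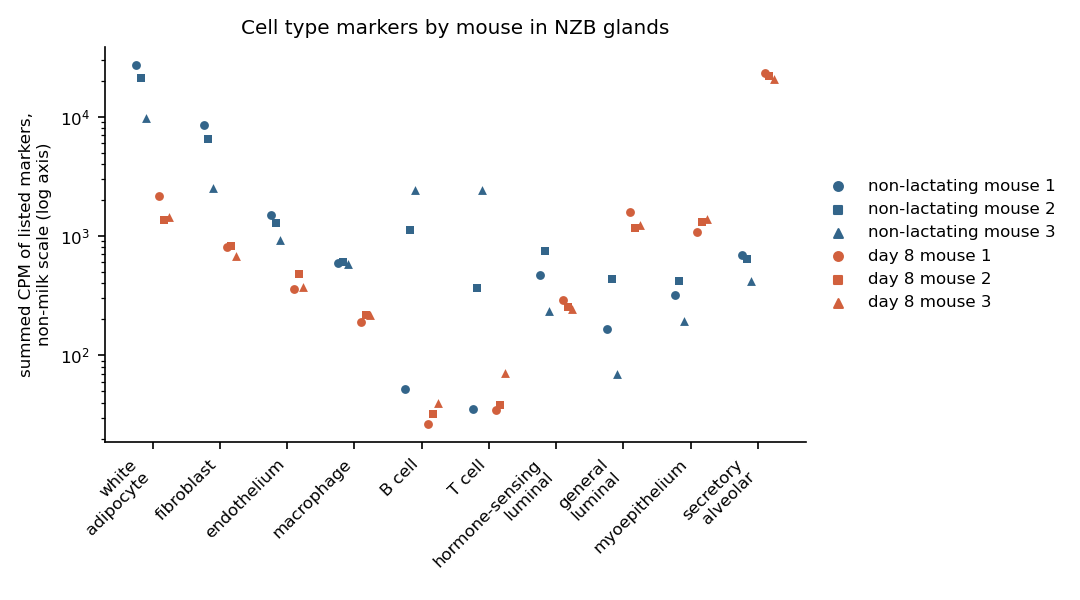
Summed CPM of the listed markers of 10 cell types (x axis) in each NZB mouse on the non-milk scale (y axis, log); shapes are mouse numbers, blue non-lactating and orange day 8. White adipocyte sums are 9717 to 27125 without lactation and 1350 to 2146 on day 8, and B and T cell sums are high in non-lactating mice 2 and 3 alone.

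Adipocyte transcripts fell in every listed member: 20 of 20 white adipocyte markers, with a median log2 change of -3.85. Their summed level was 27125, 21256 and 9717 non-milk CPM in resting mice and 2146, 1350 and 1442 on day 8. Plin1, the droplet gatekeeper of fat cells, was at 1324, 1056 and 515.0 and then 29.1, 28.9 and 31.2 non-milk CPM (-4.87 ± 0.33, adjusted p = 5.3e-05), and Adipoq, adiponectin, at 860.3, 682.0 and 294.4 and then 36.4, 32.7 and 30.3 (-4.03 ± 0.37). Resting mouse 3 was lowest and mouse 1 highest in each of these genes, and all 3 were above all day 8 mice. Adrb3, the receptor that triggers fat breakdown (-4.70 ± 0.37), and Aoc3 (-4.57 ± 0.37) fell with them, as did Sncg (-5.36 ± 0.56) and Nnat (-4.72), and Lep, leptin, by a log2 change of -3.90 ± 0.61. The other large falls were in Nrxn3 (-5.19 ± 0.63), Serpina3n (-5.05 ± 0.28), Tusc5 (-4.89), Nat8l (-4.76) and Mmd (-4.69); the brown fat gene Ucp1 was too low to be tested. Mup10, Mup14 and Mup18, major urinary proteins, were among the 15 largest falls; they belong to a family of near-identical genes, so the split of reads between them is uncertain.

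Stromal and vascular genes fell as well. Of 16 fibroblast markers 15 fell (median -1.96), of 28 collagens 15 fell and 2 rose (median -1.39), and of 12 endothelial markers 11 fell (median -1.66). Col1a1, a chain of type I collagen, was at 3001, 2080 and 804.0 and then 183.0, 170.9 and 119.1 non-milk CPM (-3.46 ± 0.46), Col3a1 fell by 3.04 ± 0.48, and Pecam1, an endothelial adhesion protein, was at 198.6, 233.0 and 312.3 and then 51.5, 81.6 and 60.9 (-1.92 ± 0.25). The collagens that rose were Col9a1 (4.50 ± 0.47) and Col17a1 (2.14 ± 0.35), the latter a hemidesmosome protein of basal epithelium. With median-ratio size factors 12 fibroblast, 13 collagen and 7 endothelial genes fell. Mmp14 and Mmp2, matrix proteases of stroma, fell (log2 changes -2.55 ± 0.32 and -2.18 ± 0.41), and the inhibitor Timp1 rose by 2.13 ± 0.33.

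Immune genes differed by class. Of 12 macrophage markers 10 fell (median -1.51); Lyz2, lysozyme, was at 100.3, 153.6 and 244.5 and then 43.3, 35.4 and 39 non-milk CPM (-1.97 ± 0.31), and Adgre1, the F4/80 antigen, fell by 1.0 ± 0.33, a call that held without resting mouse 3 and not without any other single mouse (adjusted p 0.093 to 0.15). B cell markers gave 6 falls in 9, but this rested on resting mice 2 and 3: without both, 1 of 9 fell and the median was -0.60 in place of -3.51. With limma voom none fell, and none or 1 fell without any 1 of the day 8 mice or resting mouse 2. Pax5, the B cell lineage factor, was at 2.16, 163.5 and 368.5 and then 0.368, 0.464 and 1.57 non-milk CPM (-5.06 ± 1.53, adjusted p = 0.033), and the log2 change was -0.87 without those mice. Ms4a1 (CD20), at 6.26, 78.1 and 166.5 and then 2.85, 3.94 and 3.23 non-milk CPM, changed in the same way (-3.41 ± 0.99, adjusted p = 0.029, and -0.75 without those mice). Neither passed without any 1 of the day 8 mice or without resting mouse 2 alone (adjusted p 0.08 to 0.11 for Pax5 and 0.078 to 0.094 for Ms4a1). No T cell marker passed by limma or limma voom. An unadjusted p under 0.05 was reached by 4 of 9 with limma and by 0 with limma voom. Of all 14765 genes, 2222 reached it upward and 4903 downward with limma, so 4 of 9 does not stand out. Without resting mouse 1, however, 9 fell, and the median of -2.77 was 0.12 without resting mice 2 and 3. Cd3e was at 2.2, 33.4 and 265.7 against 1.47, 1.08 and 7.12 non-milk CPM. Muscle and blood entered unevenly, as seen in Ckm, muscle creatine kinase (13.1, 4.81 and 98.6 against 3.5, 10.3 and 4.05), and the globin Hbb-bs (145.0, 82.6 and 41.1 against 153.2, 47.4 and 57), neither of which passed. The called members of their lists were Myl1 of muscle, which fell by 4.22 ± 0.32, and Alas2 of red blood cells, which fell by 1.03 ± 0.29. Without any 1 mouse but resting mouse 3 no red blood cell marker passed.

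In antibody transport into milk 3 of 7 tested genes rose and 1 fell, with a median of -0.05: besides Pigr and Ccl28, Madcam1, a vessel address for gut-type lymphocytes, rose by 0.93 ± 0.28. Jchain, which joins antibody chains in plasma cells, was at 16, 24.7 and 47.7 and then 207.3, 417.8 and 39.9 non-milk CPM (2.46 ± 0.79, adjusted p = 0.04), with day 8 mouse 3 inside the resting range. Neither Jchain nor Madcam1 passed without day 8 mouse 1 or 2 or without resting mouse 1 or 2 (adjusted p 0.052 to 0.14 and 0.072 to 0.14). Fcgrt, the receptor that returns antibody to blood, fell by 2.89 ± 0.33. The tested plasma cell markers were divided, with a median of 0.28. Jchain, Xbp1 and Fkbp11 rose, Irf4 fell by 2.31 ± 0.26 (limma adjusted p = 0.00049), and Sdc1, Prdm1 and Eaf2 did not pass. Of 24 interferon-stimulated genes 16 fell (median -1.56), and 10 fell and 1 rose without resting mice 2 and 3; Oasl2 was at 51.4, 74.4 and 45 and then 8.19, 6.58 and 6.87 non-milk CPM (-2.79 ± 0.26).

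Mitochondrial transcripts, the outcome to which the NZB genotype relates by its mitochondrial DNA, did not pass the test. None of the 13 mitochondrially encoded genes passed on the non-milk scale by limma, where the median was 0.38 (0 at an unadjusted p under 0.05, and 0 by limma voom), and their sum was 104060, 101980 and 56243 CPM without lactation against 101898, 114397 and 108745 on day 8. mt-Co1, a cytochrome oxidase subunit, was at 30414, 31304 and 15308 and then 27418, 32493 and 31647 non-milk CPM (0.32, adjusted p = 0.75); the groups overlapped, and resting mouse 3 was alone in being low. mt-Nd1, a complex I subunit, gave 0.61 (adjusted p = 0.29). Of 36 nuclear complex I genes 4 rose and 3 fell and of 37 genes of complexes II to V 3 rose and 2 fell, shares below those of all genes. These small counts moved with single mice. Leaving out 1 mouse gave 1 to 4 rises and 1 to 8 falls in complex I and 1 to 4 rises and 0 to 7 falls in complexes II to V, with the most falls without resting mouse 3. Without resting mice 2 and 3 complex I had 2 rises, and complexes II to V had 1 rise and 6 falls. Ndufc2 rose the most, from 46.4, 43.2 and 27.3 to 140.5, 140.5 and 137.2 non-milk CPM (1.85 ± 0.23). Sirt3, a mitochondrial deacetylase, was at 14.3, 16.1 and 17.6 and then 18.1, 17.6 and 13.9 non-milk CPM (0.04 ± 0.23, adjusted p = 0.91). Ppargc1a, the coactivator of mitochondrial biogenesis, fell from 29.5, 27.8 and 21 to 2.85, 4.49 and 6.87 non-milk CPM (-2.29 ± 0.33, adjusted p = 0.0013). Outer membrane fusion genes diverged, with Mfn2 lower by a log2 change of -1.51 ± 0.26 and Mfn1 higher by 1.0 ± 0.18, and the matrix unfoldase Clpx rose by 1.71 ± 0.17.

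Fatty acid oxidation fell more widely: 17 of 24 genes fell and 1 rose, with a median of -1.15, 10 fell with median-ratio size factors, and 2 rose without resting mouse 3 or resting mice 2 and 3. Cpt1a, which admits fatty acids into mitochondria, was at 55.1, 66.5 and 52.9 and then 13.3, 12.9 and 12.2 non-milk CPM (-2.09 ± 0.20), and Acadm, the medium-chain dehydrogenase, at 127.0, 113.3 and 70.1 and then 20.4, 23.1 and 31.9 (-1.98 ± 0.28). The gene that rose was Ucp3, an uncoupling-family carrier, at 44.7, 36.4 and 23.7 and then 164.3, 157.2 and 293.8 non-milk CPM (2.50 ± 0.32). In the list of pyruvate entry and the citric acid cycle 9 of 25 rose, among them Pdhb (1.48 ± 0.29) and the pyruvate carrier Mpc1 (1.36 ± 0.28), and 8 fell, among them Idh1 (-2.33 ± 0.34). Both counts were 4 or 5 without day 8 mouse 1 or 3 or resting mouse 2. Pdk4, a brake on pyruvate entry, did not pass (-0.47 ± 0.36, adjusted p = 0.33). G6pdx, which feeds reducing power to fat synthesis, rose by 1.0 ± 0.33 (adjusted p = 0.043), and did not pass without any 1 of the day 8 mice or resting mouse 2 (0.069 to 0.14). Glycolysis exchanged an isoform, since Aldoc went from 5.84, 6.81 and 2.56 to 312.3, 344.9 and 310.0 non-milk CPM (5.81 ± 0.30) and Aldoa from 825.9, 629.8 and 374.1 to 145.5, 143.5 and 119.6 (-2.09 ± 0.30).

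Regulators of growth and remodelling moved in both directions. In the STAT3 and cytokine list 5 of 16 rose and 4 fell: the acute phase protein Lcn2 was at 31.5, 42.7 and 18 and then 2977, 949.7 and 1297 non-milk CPM (5.69 ± 0.46), while Hp, haptoglobin, fell by 4.56 ± 0.39 and Igfbp5, a binding protein known from involution, by 2.69 ± 0.35. In the cell cycle list 9 of 30 fell, a share close to the 25.6% of all genes, and 1 rose. There were 16 falls without resting mouse 1, 4 or 5 without day 8 mouse 1 or 2 or resting mouse 2, and 3 falls and 2 rises without resting mice 2 and 3. Ccnd2, a cyclin, fell by 3.27 ± 0.18. Mki67, a proliferation marker, was at 37.6, 53.7 and 182.3 and then 157.0, 300.9 and 279.1 non-milk CPM (1.70 ± 0.55, adjusted p = 0.041), with resting mouse 3 inside the day 8 range. The call of Mki67 held without that mouse and not without any other (adjusted p 0.057 to 0.13). Clock genes gave 4 rises and 8 falls in 19, with Rora up by 2.99 ± 0.25 and Dbp down by a log2 change of -3.04 ± 0.52; the labels give no time of day. Sox10, listed as a Schwann cell marker and also known in mammary epithelium, was at 14.8, 23.2 and 5.47 and then 299.2, 314.9 and 270.5 non-milk CPM (4.45 ± 0.43), while S100b and Prx of the same list fell by 1.32 ± 0.36 and 1.24 ± 0.40. Without day 8 mouse 1 or 2 or resting mouse 2 neither of those falls passed (adjusted p 0.067 to 0.076 for S100b), nor did Prx without any mouse but resting mouse 3 (0.076 to 0.15).

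The same change was then compared with that of C57 glands, 3 non-lactating and 3 day 8 mice of the other genotype, by the difference of the 2 log2 changes over 12 samples. Of 15680 genes 5 (0.0319%) changed more upward in NZB and 5 (0.0319%) more downward, and the median difference was 0.04. The milk protein share was 73.9% ± 1.66 in NZB and 74.1% ± 2.75 in C57 on day 8 (SD, n = 3), and 1.45% ± 0.494 against 0.443% ± 0.0209 without lactation. Cldn8 rose by a log2 change of 6.24 in NZB and 3.27 in C57 (difference 2.97 ± 0.43, adjusted p = 0.028); its day 8 means were 367.4 and 297.5 non-milk CPM and its resting means 4.14 and 32.2. Slc15a2 (chr16:36750177-36784962), a peptide transporter, went from 3.38 to 61.4 non-milk CPM in NZB and from 48.3 to 38.3 in C57 (difference 3.93 ± 0.55, adjusted p = 0.028). In both genes the genotypes lay closer on the log2 scale on day 8 than without lactation.

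Slc34a2 and Fabp3 rose less in NZB, by log2 changes of 7.64 and 7.44 against 9.84 and 9.80 in C57 (differences -2.20 ± 0.32 and -2.36 ± 0.38, adjusted p = 0.028 and 0.044). Their resting means were 34.3 and 19.5 non-milk CPM in NZB and 5.58 and 3.57 in C57, while on day 8 they were 6800 and 3468 against 5968 and 3983. The resting share of milk protein transcripts moved with them, and its part in these differences was not tested. Lars2, the mitochondrial leucyl-tRNA synthetase, was at 36.8 and 42.9 non-milk CPM in NZB and rose from 26 to 223.2 in C57 (difference -2.82 ± 0.44, adjusted p = 0.043). Ighg2c, an antibody constant segment, was at 18.5 and then 6.61 in NZB and at 0.0863 and then 9.46 in C57 (difference -4.65 ± 0.42, adjusted p = 0.00093), and it alone passed by limma voom (adjusted p = 0.0078). The count of 10 genes rested on single libraries. C57 non-lactating mouse 2, whose 2 columns differ in depth (2174916 and 11888708 reads), leaves 5 above and 3 below when omitted. In NZB the shifts were larger: without NZB non-lactating mouse 1 it was 106 above and 287 below, and without mouse 2 it was 138 above and 8 below. Cldn8, Slc15a2, Slc34a2, Fabp3 and Lars2 each missed the threshold without any 1 of the C57 day 8 mice, C57 resting mouse 1 or NZB day 8 mice 1 and 3, with adjusted p up to 0.12, 0.11, 0.12, 0.22 and 0.18; all but Slc15a2 did so without NZB day 8 mouse 2 and C57 resting mouse 3 too, and Lars2 without C57 resting mouse 2. Ighg2c passed in each of these. The lists with the largest positive median differences were general luminal (2.57), myoepithelium (1.66) and hormone-sensing luminal (1.33), and those with the largest negative ones were B cell (-2.96) and T cell (-2.15), the lists high in resting NZB mice 2 and 3. In none of the 5 lists did a tested member pass by limma or limma voom. By limma, unadjusted p was under 0.05 in 10 of 10, 10 of 11, 7 of 11, 5 of 11 and 1 of 10. By limma voom it was so in 10, 10, 3, 0 and 0 of these members, in the same order. Of all 15680 genes, 1217 above and 468 below had such a p by limma.

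**Figure D5:**
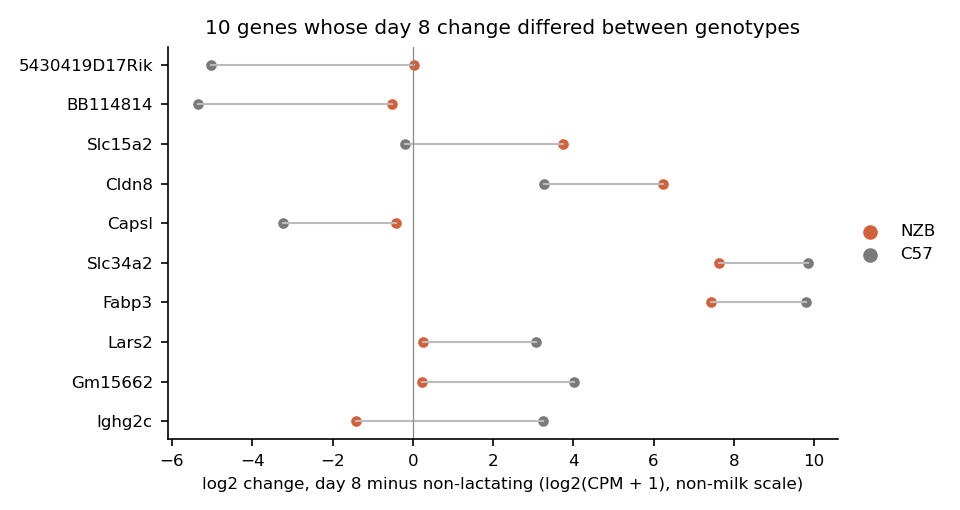
Log2 change, day 8 minus non-lactating, on the non-milk scale (x axis) in NZB (orange) and C57 (grey) for the 10 genes whose change differed between genotypes (rows). Slc15a2 and Cldn8 changed more upward in NZB, and Slc34a2, Fabp3 and Lars2 more upward in C57.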

How the data were processed

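PolyA RNA of inguinal mammary glands was measured in 24 mice, of which 3 NZB day 8 and 3 NZB non-lactating mice were compared here, and 3 and 3 C57 mice for the difference between genotypes. The deposited table gives log10 values for 32544 gene symbols in 48 columns, 2 per mouse; the authors' values were found to be log10(CPM + 1), since each column sums to 1000000 after the transform is undone, and whole reads were recovered, within a tolerance of 0.05 for every value under 200 reads (higher values were rounded). Builds GRCm38 and mm10 stand in the submitters' processing notes; an aligner or counter is named in none of the sources used here, nor what the 2 columns of a mouse are. These differed by about the noise of counting, except in C57 non-lactating mouse 2 (2174916 and 11888708 reads, chi-square 1.63 per gene), and were averaged in CPM as 1 sample. The authors' table holds 27 symbols turned into dates.

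Total reads came to 9923538 to 24252986 reads per NZB mouse. The values were turned into log2(CPM + 1), a pseudocount that understates the change of low genes, in place of the log2 scale first assumed for the file. The 18 milk protein genes were removed and the rest rescaled to 1000000 (non-milk scale). Genes above 1 CPM in at least 3 of 6 samples (of 12 for the difference) were tested with limma 3.58.1 (R 4.3.3; lmFit, eBayes with trend, 2-sided), Benjamini-Hochberg adjustment over all tested genes and a threshold of 0.05. On simulated data for 15729 genes, 100 of them changed at each fold, limma recovered 34% of 4-fold and 2% of 2-fold changes with no false call. A gene not called may thus still have changed. The simulation gave 36 calls, against 1828 rises and 3782 falls in the data, which alters the adjusted threshold. These shares therefore do not give the recovery in this comparison. Other steps used Python 3.11.15 with numpy 2.4.6, pandas 2.3.3 and matplotlib 3.10.9.

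The members and gene lists, 65 in all, were chosen with earlier results of these data known. Named genes are the 15 largest called rises and falls with groups that do not overlap and a mean log2 of at least 2 in the higher group (leaving out gene models, clones, immune receptor segments and date-like symbols), up to 6 members of each described list by adjusted p with those called against its majority, a fixed panel, and the genes that differed between genotypes. Gm15662, BB114814, 5430419D17Rik and Ighg2c are named because the count of 10 genes they belong to is small. Lists not described had no further use. For 1 C57 non-lactating mouse the genotype tag reads NZB although the title reads C57; the title was followed, and an alternative left this mouse out. Alternatives tried were all 24 samples in the fit, another pseudocount (0.25), other filters (none, or above 5 CPM), limma voom on recovered reads, 1 of the 2 columns, other scalings, a replicate block, each mouse left out and non-lactating mice 2 and 3 left out. Gene positions are from GENCODE and promoter windows from RefSeq.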

Additional observations from a re-analysis of the deposited data

Results flagged for a closer look

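The day 8 change differed between genotypes, by the test of that difference over 12 samples (limma, adjusted over 15680 genes), in 10 genes, 5 in each direction. The differences of log2 changes, NZB minus C57, were 5.06 for 5430419D17Rik, 4.83 for BB114814, 3.93 for Slc15a2, 2.97 for Cldn8, 2.80 for Capsl, -2.20 for Slc34a2, -2.36 for Fabp3, -2.82 for Lars2, -3.78 for Gm15662 and -4.65 for Ighg2c. 5430419D17Rik was at 0.571 and 0.46 non-milk CPM in NZB and fell from 39.6 to 0.0625 in C57. BB114814 was at 0.744 and 0.165 in NZB and fell from 45.2 to 0 in C57, and Capsl was at 1.16 and 0.628 against 10.2 and 0.175. Gm15662, a gene model of unknown product, was at 1.93 and 2.55 in NZB and went from 0.352 to 21.2 in C57. In all 3 genes that fell in C57 the NZB glands were already near the floor without lactation. The calls of 5430419D17Rik and BB114814 ended without any 1 of 7 of the 12 mice (adjusted p 0.053 to 0.11) and those of Capsl and Gm15662 without any 1 of 9 (0.055 to 0.17 and 0.065 to 0.14). None of these 4 passed by limma voom (adjusted p = 0.34, 0.43, 0.26 and 0.22).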

How the results depend on the processing

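Between 1360 and 2383 genes rose and between 2339 and 4555 fell on the non-milk scale when a single mouse was left out, the fewest falls (2339) without non-lactating mouse 2 and 2448 without day 8 mouse 3. Without non-lactating mice 2 and 3 together 2323 rose and 2824 fell. Of 189 called genes whose day 8 change was followed through the alternatives, 169 kept their call and direction in each. None of the genes followed was called in opposite directions. On the deposited scale Csn2 did not pass with no filter on low values (adjusted p = 0.10), where the cause was not tested. The milk protein share rose by 71.9 to 73.4 points with a single mouse left out and by 69.2 with 8 genes counted.

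The difference between genotypes was the least stable count. In place of 5 genes above and 5 below, there were 116 and 8 with all 24 samples in the fit, 3 and 1 without C57 non-lactating mouse 3, 3 and 2 with a pseudocount of 0.25, 0 and 1 with no filter, 0 and 1 with limma voom, 2 below with a filter of 5 CPM and 2 below with median-ratio scaling, 10 above on the deposited scale, and 124 and 14 without NZB non-lactating mice 2 and 3. Leaving out a single mouse gave 0 to 138 above and 1 to 287 below. By limma 1217 genes above and 468 below had an unadjusted p under 0.05. The cause of these shifts was not tested.

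Replicate numbers did not pair the samples: same-numbered day 8 and non-lactating mice had deviations that correlated at 0.11, -0.10 and 0.05. With a replicate block 1747 genes rose and 3691 fell on the non-milk scale, 437 and 13291 on the deposited scale, and 4 genes were above and 1 below for the difference between genotypes, where 4 of the 10 genes kept their call.

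There were 3 mice a side, and the non-lactating group had the wider spread (median SD 0.39 against 0.23 on day 8). Of the 1828 rises and 3782 falls called on the non-milk scale, 1391 and 3099 were of at least 1 on the log2 scale. The remaining calls had smaller log2 changes. The share of 2-fold changes that went undetected was not measured in these data. A gene not called is therefore not shown to be unchanged.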
